A study of Tupaia belangeri with 6 samples.

Results

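A set of 7 genes of the GABA-A receptor was followed across the cell classes of the tree shrew (TS) hippocampus and between TSs with Alzheimer's-like pathology (ALP) and control TSs. They were chosen by symbol, GABRA2, GABRA4 and GABRA5 for alpha subunits, GABRB1 and GABRB2 for beta subunits, and GABRG1 and GABRG3 for gamma subunits. They are part of 18 GABA-A subunit symbols among the 83605 features of the annotation, and each symbol stood on 1 row.

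Single-nucleus RNA sequencing with the 10× Genomics 3′ kit was done on frozen hippocampus, 1 library per animal, with 3 libraries of ALP TSs and 3 of control TSs. All animals were naturally aging Tupaia belangeri, 5 to 6 years old in the methods, and no genetic change or drug separated the groups. The ALP TSs (titled AD in the labels) were picked by slow completion of a pipeline maze, and the controls (titled Normal) were age-matched. The animals were perfused with saline before tissue collection, and sex per library and hippocampal subfield are not given in the sources used here, so a difference between groups is one between 3 and 3 selected animals.

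GABA-A receptors are chloride channels that open when GABA, the main inhibitory transmitter of the brain, binds to them. Each channel is a ring of subunits, as a rule alpha with beta and either gamma or delta, and GABA binds where alpha meets beta. Gamma subunits contribute to the benzodiazepine site and help to hold receptors at synapses, whereas receptors with an alpha4 and a delta subunit lie mainly outside synapses and carry tonic inhibition. Alpha5 is known for its high level in the hippocampus, and astrocytes also carry GABA-A receptors.

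The libraries held 3011 to 8785 barcodes and 19182981 to 35898940 unique molecular identifiers (UMIs, 1 per captured RNA molecule). Nuclei with more than 200 and fewer than 2500 genes and under 5% mitochondrial UMIs were kept, 28233 in all, and the upper limit took out 15.96% to 46.4% of the barcodes per library, the most in control 2. At most 0.465% of a library's barcodes recurred in another library. Clustering without the GABA-A subunit features gave 10 classes named by markers, of which 8 were followed and the small Ependymal-like and Mural-like classes (273 nuclei together) were not. The neurons were Gran-like (2637 nuclei, granule cells), InN-like (2429, inhibitory neurons) and Pyra-like (2866, pyramidal cells), and the other classes were Oligo-like (8190, oligodendrocytes), Astro-like (3231, astrocytes), OPC-like (2717, oligodendrocyte precursors), Micro-like (1394, microglia) and Endo-like (494, endothelial cells). Another 3098 nuclei, with a median of 772 UMIs, were in clusters left unnamed for shallow depth or for mitochondrial or haemoglobin genes in the lead, and 904 nuclei were in other unnamed clusters (many doublets, markers of several classes or of none). Among the markers of GABAergic neurons, GAD2 and SLC32A1 carried 0 UMIs in the nuclei kept (a count of 0 allows up to 3), and GAD1 reached only 7.95 ± 2.58 CPM (SD, n = 6) in the InN-like nuclei, which were named mainly by DLX6, ADARB2, LHX6, SST and CALB2.

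Levels are given as CPM, the UMIs of a gene per 1000000 UMIs of that class in 1 library. They compare 1 gene between classes, since the lengths that a comparison between genes would need were not used. The classes were built from the same nuclei, so their order is a description without a test.

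GABRA2 (feature TSDBGID.15176, 14166 UMIs) encodes alpha2, a subunit of synaptic receptors. It was highest in the Gran-like nuclei, with 548 CPM in the lowest library, 611 in the median and 719 in the highest. Astro-like nuclei followed with 276, 294 and 365 CPM, and Pyra-like nuclei with 198, 252 and 431 CPM. The Gran-like libraries lay above all Astro-like and Pyra-like libraries, while Astro-like and Pyra-like values overlapped, Astro-like being higher in 4 of 6 libraries. OPC-like nuclei had a median of 168 CPM, InN-like 130, Endo-like 97.9, Micro-like 39.4 and Oligo-like 19.6, and each of these neighbours overlapped in range.

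GABRA4 (TSDBGID.15177, 8085 UMIs), the alpha4 subunit, was highest in the 3 neuronal classes. Gran-like nuclei ranged from 257 to 371 CPM with a median of 294, InN-like nuclei from 176 to 259 with a median of 208, and Pyra-like nuclei from 120 to 276 with a median of 171. Gran-like nuclei were above InN-like nuclei in 6 of 6 libraries although the ranges met, and InN-like above Pyra-like in 5 of 6. All Pyra-like libraries were above all OPC-like libraries, whose median was 40.4 CPM. In Astro-like nuclei, where GABRA2 was second highest, GABRA4 had a median of 10.2 CPM, next to 9.63 CPM in Oligo-like nuclei with overlapping ranges.

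GABRA5 (TSDBGID.16060), the alpha5 subunit, was sparse, with 585 UMIs in all nuclei kept, of which 50.4% fell in the Pyra-like class. Its median was 24.2 CPM in Pyra-like nuclei (lowest 11.2, highest 28.7) and 8.23 CPM in Gran-like nuclei. Pyra-like nuclei were higher in 6 of 6 libraries, although the ranges overlapped, as did those of all neighbouring classes. The 3098 unnamed nuclei had a median of 26.3 CPM on 77 UMIs, above the Pyra-like median, and Endo-like nuclei 18.4 CPM on 8 UMIs. Pyra-like nuclei were above Endo-like nuclei in 3 of 6 libraries. The unnamed and Endo-like values rest on few molecules, as does the Gran-like value (74 UMIs).

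GABRB1 (TSDBGID.14965, 9898 UMIs) encodes beta1. Pyra-like nuclei had 235, 329 and 440 CPM in the lowest, median and highest library, Astro-like nuclei 159, 249 and 359, and Gran-like nuclei 191, 230 and 296. These 3 classes overlapped, and all Gran-like libraries lay above all OPC-like libraries, whose median was 106 CPM. InN-like nuclei followed with a median of 91.9 CPM, below OPC-like nuclei in 6 of 6 libraries. Features named as antisense to GABRB1 (11 of them) carried 1631 UMIs, 14.1% of the sum with the gene itself, and this share was 7.54% for GABRB2 and 5.48% for GABRA4. Since the use of strand in counting is not stated, reads of a gene and of its antisense partners cannot be told apart.

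GABRB2 (TSDBGID.12580, 14259 UMIs), the beta2 subunit common in adult synaptic receptors, was led by Gran-like nuclei with 388, 465 and 503 CPM and by InN-like nuclei with 344, 386 and 483 CPM, which overlapped. Pyra-like nuclei had a median of 237 CPM and Astro-like nuclei 192 CPM. All Astro-like libraries were above all OPC-like libraries (median 89.2 CPM). Oligo-like nuclei had a median of 22.1 CPM.

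GABRG1 (TSDBGID.15175, 2841 UMIs), the gamma1 subunit, had the plainest class pattern. Astro-like nuclei had 138, 157 and 224 CPM, and no library of the other 7 classes reached the lowest of these. The next classes, InN-like (median 50.1 CPM), Endo-like (51.2) and Gran-like (44.6), overlapped. Astro-like nuclei were 11.4% of the nuclei and held 35.4% of the GABRG1 UMIs.

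GABRG3 (TSDBGID.16061, 1162 UMIs), the gamma3 subunit, was led by InN-like nuclei, with 36.1, 55.3 and 84.4 CPM. They were above Pyra-like nuclei (median 24.0 CPM) in 6 of 6 libraries, although the 2 ranges overlapped. The other classes had medians of at most 8.10 CPM.

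**Figure D1:**
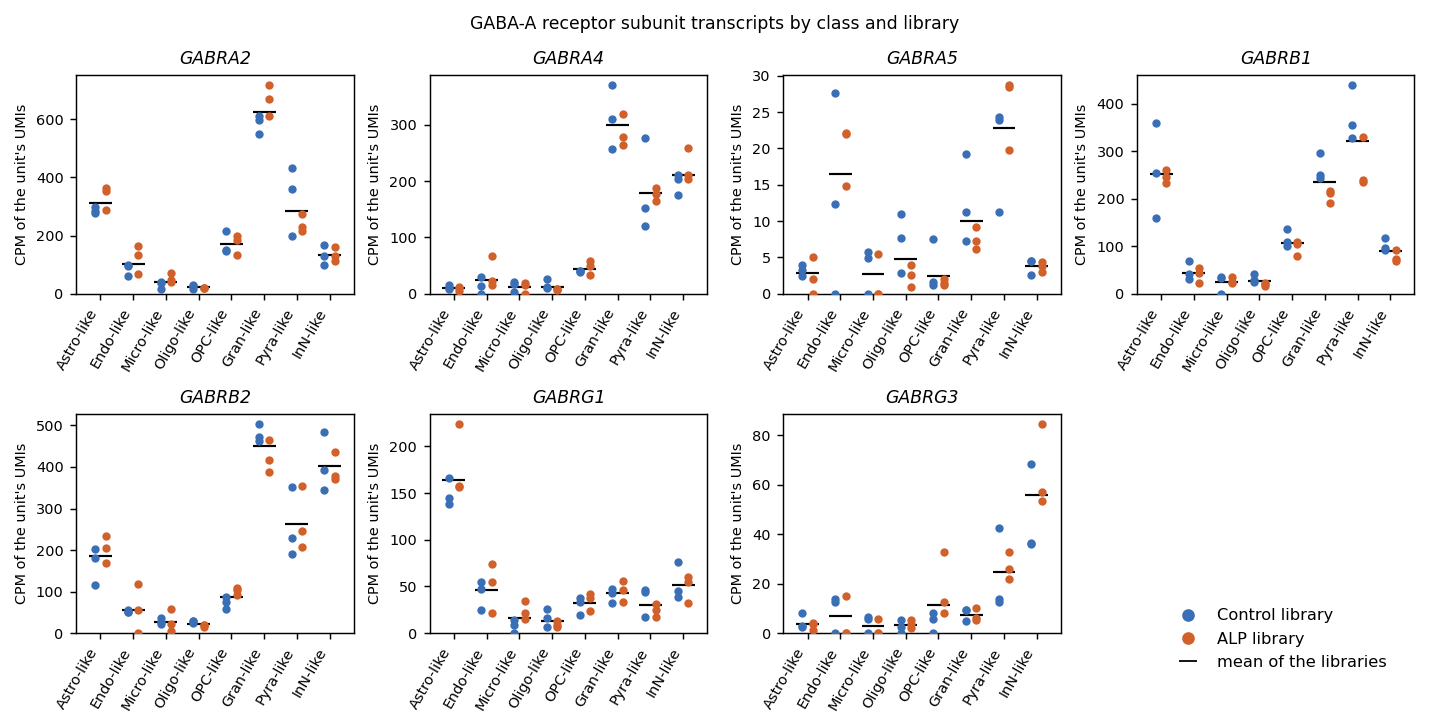
Levels of the 7 subunit genes (CPM, linear axes from 0) in the 8 classes followed, 1 point per library, with control and ALP libraries in separate colours and a line at the mean of 6 libraries. GABRA2 stands highest in Gran-like nuclei, GABRG1 in Astro-like nuclei and GABRG3 in InN-like nuclei. Micro-like nuclei are low for all 7 genes and Oligo-like nuclei for all but the sparse GABRA5.

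Each member had the same highest class in the share of nuclei with at least 1 UMI after thinning to 1000 UMIs. GABRA2 was seen in 45.2% ± 3.71 (SD, n = 6) of Gran-like, 26.5% ± 2.95 of Astro-like and 11.8% ± 2.42 of InN-like nuclei. Oligo-like nuclei gave 1.99% ± 0.774. They are shown for comparison as the class with the lowest GABRA2 share, so the other classes lie above them by that choice. The share that free RNA in droplets gives in each class was not measured. Unthinned GABRA2 shares were 77.7% in Gran-like, 43.7% in Astro-like, 38.0% in InN-like and 2.96% in Oligo-like nuclei. The median depths were 2919, 1882, 4289 and 1332 UMIs in that order. GABRG1 was seen in 14.5% ± 2.41 of thinned Astro-like nuclei against 1.12% ± 0.586 of Oligo-like nuclei, and GABRG3 in 4.99% ± 1.69 of InN-like nuclei against 0.286% ± 0.205. GABRA4 in Astro-like nuclei, at 1.01% against 1.00%, and GABRA5 in InN-like nuclei, at 0.420% against 0.496%, were near the Oligo-like share. Thinning left out 62 Gran-like, 143 Astro-like, 44 InN-like and 1401 Oligo-like nuclei of lower depth.

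**Figure D2:**
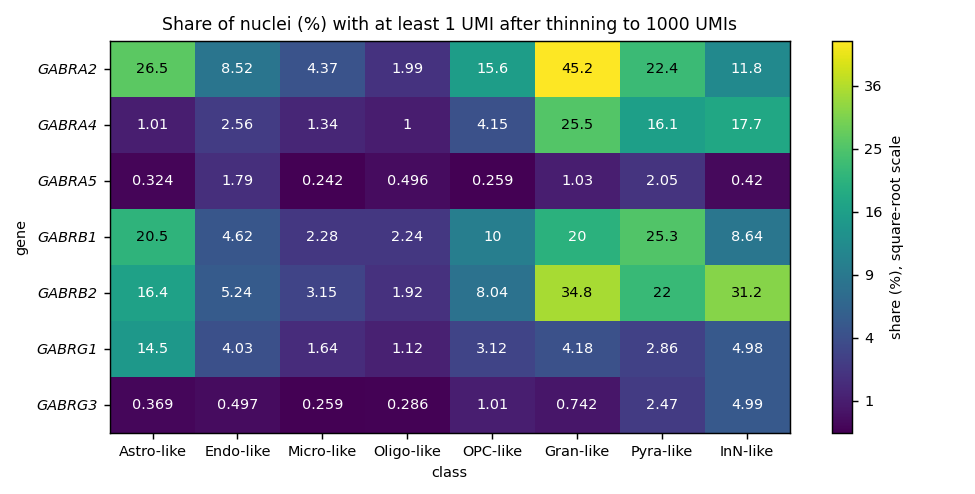
Share of nuclei (%) with at least 1 UMI of each subunit gene after thinning to 1000 UMIs, as the mean of 6 libraries per class (columns) and gene (rows), with colour on a square-root scale. GABRA2 reaches 45.2% in Gran-like nuclei and GABRG1 14.5% in Astro-like nuclei, while no gene passes 2.24% in Oligo-like nuclei.

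Markers of neurons were summed in the same way, as genes that glia should lack, and their levels there depended on the list. The 6 excitatory markers with counts summed to 7.82% of their Pyra-like level in Oligo-like nuclei, 7.02% in Astro-like, 19.1% in Micro-like and 19.7% in Endo-like nuclei, and to 75.0% in InN-like nuclei, so they marked neurons at large. The 7 InN markers with counts summed to 1.77% of their InN-like level in Oligo-like nuclei and 1.89% in Astro-like nuclei. In OPC-like nuclei they summed to 21.2% and in Gran-like nuclei to 12.1% of it, so this list was not low in all glia. GABRA2, GABRB1 and GABRB2 in Astro-like nuclei stood at 49.7%, 78.5% and 40.9% of their highest class, and GABRA4 at 3.30%. In Oligo-like nuclei the members other than GABRA5 stood at 3.46% to 8.15% of their highest class, above the share of the InN markers, and how much of this was free RNA was not tested.

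Within the InN-like class 4 marker-named types differed in their subunits. Without the upper gene limit a cluster of 870 nuclei was named PVALB type, and with the limit no cluster was. MME was among the leading genes of that cluster and of the SST type kept here. GABRA4 was high in the SST type, named for somatostatin (median 313 CPM, range 203 to 417). It was also high in the LAMP5 type, which holds neurogliaform cells (270, range 220 to 299). It was low in the CNR1 type (115, range 70.1 to 147) and the VIP type (83.5, range 32.6 to 97.6), and no library of these latter types reached the lowest library of the former. GABRB2 was highest in the LAMP5 type, with 544 to 793 CPM against 227 to 507 CPM in the other types. GABRA2 was highest in the CNR1 type, with 148 to 277 CPM against at most 146 CPM in the others. GABRG3 was lowest in the SST type, with a median of 26.4 CPM against 56.6 to 73.9 CPM in the others. No SST library (at most 44.5 CPM) reached the lowest CNR1 library (47.6 CPM), while the LAMP5 and VIP types overlapped with it. GABRG1 was lowest in the LAMP5 type, with a median of 20.1 CPM against 47.2 to 67.3 CPM, overlapping with the SST and CNR1 types, and the types overlapped for GABRB1.

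The 5 Pyra-like clusters differed as well. Cluster 16, led by COL8A1 and COL21A1, had 37.4 to 132 CPM of GABRA2 (5 libraries with at least 10 nuclei), below every library of cluster 9, led by PRSS16 (250 to 396 CPM), of cluster 13, led by TSHZ2 (227 to 371 CPM), and of cluster 20, in which PROM1 was among the leading genes (248 to 692 CPM). Cluster 23, led by POSTN, had 109 to 266 CPM of GABRA2 in 5 libraries and overlapped with cluster 16. The same cluster 16 had 331 to 489 CPM of GABRB2, whereas cluster 20 had 66.7 to 186 CPM. GABRG3 was at 40.2 to 59.3 CPM in cluster 13 and at most 16.4 CPM in cluster 9. It spread from 0 to 106 CPM in cluster 23 (median 71.0) and from 0 to 71.4 CPM in cluster 16 (median 40.3). GABRA4 was highest in cluster 13, with a median of 272 CPM.

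**Figure D3:**
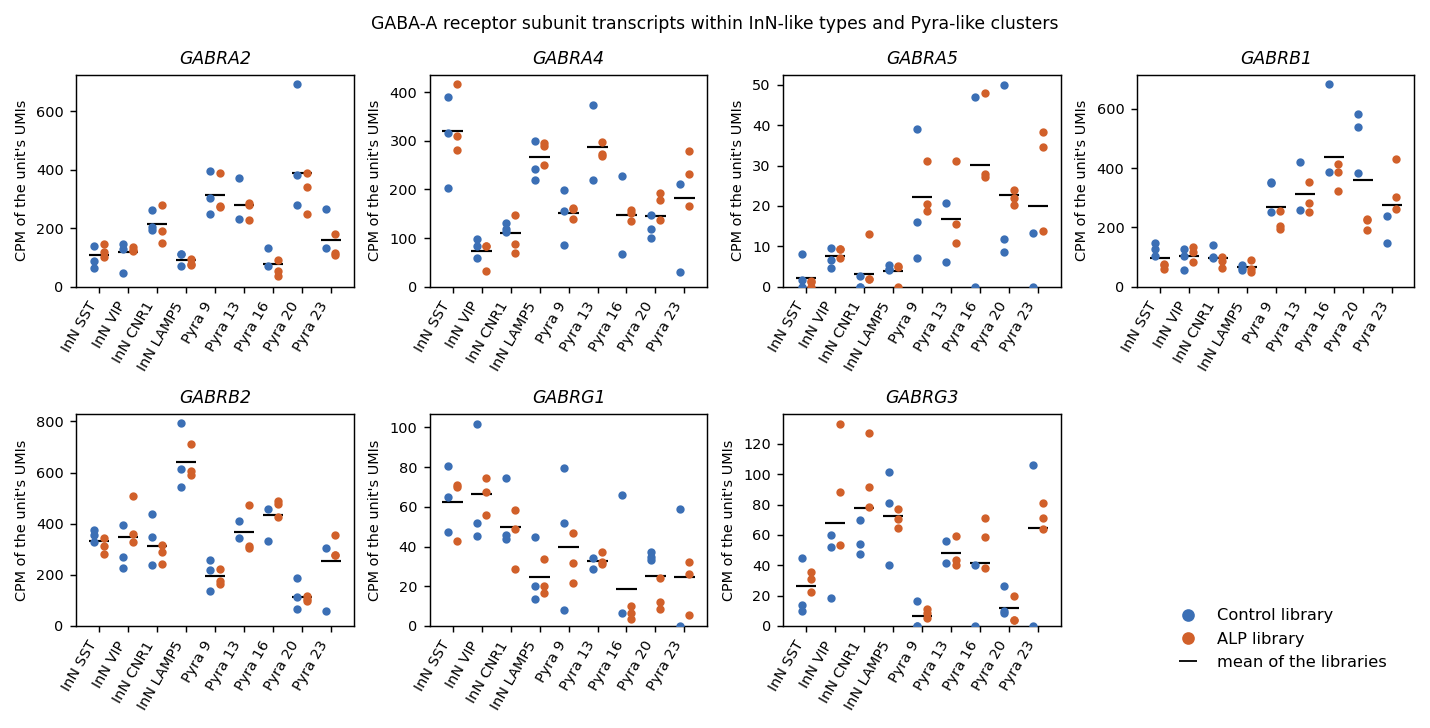
Levels of the 7 subunit genes (CPM of the type's or cluster's UMIs, linear axes from 0) in the 4 InN-like types and in 5 Pyra-like clusters, 1 point per library with at least 10 nuclei, coloured by group, with a line at the mean. GABRA4 and GABRB2 differ between InN-like types, and GABRA2 is lower in Pyra-like cluster 16 than in clusters 9, 13 and 20, with cluster 23 overlapping.

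The Pyra-like class was made of these clusters in unequal parts. Cluster 20 was 66.1% of the Pyra-like nuclei of control 3 and 5.18% to 22.5% of those of the other 5 libraries. Cluster 9 was 28.9% to 54.3% of the ALP and 20.6% to 38.1% of the control Pyra-like nuclei. For GABRA2, GABRA5 and GABRB1, differences between groups in the whole Pyra-like class are therefore given with those within cluster 9, the only one of the 5 tested alone.

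The patterns of other genes were ranked by their likeness to each member, as Pearson's r of log2(CPM + 1) over 48 sums (8 classes in 6 libraries), which share libraries and depth. GABRA2 was most like LRP1B (0.91), GRM5 (0.90) and PLCB1 (0.89), and GABRA4 like ADAM22 (0.91), MYT1L (0.90) and RYR2 (0.90). GABRB1 was most like GPC5 (0.88) and GRM5 (0.87), and GABRB2 like RIMBP2 (0.93), OSCP1 (0.93) and UNC79 (0.89). GABRG1 was most like NR2F1 (0.83), the GABA transporter gene SLC6A11 (0.81) and GAS2L1 (0.81), and GABRG3 like ANK1 (0.80), LHFPL4 (0.77) and RERG (0.76). The sparse GABRA5 reached 0.73 with SYNPO, 0.69 with GALNT9 and 0.67 with LY6E. These values describe levels only.

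The comparison of ALP and control TSs asked whether inhibition by GABA-A receptors, as far as transcripts show it, differed with the pathology. For each class, the UMIs of each library were added up and compared by edgeR's quasi-likelihood test, and a gene was called at a Benjamini-Hochberg adjusted p under 0.05 over all genes of the class and a log2 fold change beyond 0.25. Of 56 pairs of member and class, 36 had enough counts (Gran-like and Pyra-like 7 each, InN-like 6, Astro-like, OPC-like and Oligo-like 5 each, Micro-like 1, Endo-like 0), and 0 were called. At an unadjusted p under 0.05 there were 5 (higher in ALP TSs for GABRA2 in Astro-like, GABRA4 and GABRG3 in InN-like and GABRB2 in OPC-like nuclei, lower for GABRB1 in Oligo-like nuclei), and DESeq2 also called 0. Over all genes, 1718 of 10146 in Astro-like, 1356 of 8780 in OPC-like, 2500 of 11505 in Oligo-like and 2355 of 11931 in InN-like nuclei were at an unadjusted p under 0.05. Among all genes tested, 0.217% were called in Astro-like, 0.866% in Micro-like, 4.89% in Oligo-like, 1.62% in OPC-like, 2.05% in Gran-like and 0% in InN-like, Endo-like and Pyra-like nuclei, where edgeR called no gene of any kind. DESeq2 called 474, 1 and 296 genes in these, and 2355, 91 and 2275 genes had an unadjusted edgeR p under 0.05.

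The log2 fold changes of the 36 pairs lay between -0.69 and 0.63. The 95% interval lay within a 2-fold change in either direction for 23 pairs and within a 1.5-fold change for 6.

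Over the 8 classes, ALP libraries were all above control libraries in 5 pairs of member and class and all below in 4. The share of genes with either order was 21.9% in Astro-like, 16.1% in Micro-like, 22.9% in Oligo-like, 18.6% in OPC-like, 22.6% in Gran-like, 24.4% in InN-like and 22.1% in Pyra-like nuclei. The members' 9 of 36 pairs are read against these shares. One of them was GABRA2 in Micro-like nuclei, on 76 UMIs, with a log2 fold change of 0.55 (-0.30 to 1.41). In the following, values are CPM with the TMM factors of the test, for libraries 1, 2 and 3 of each group in that order.

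**Figure D4:**
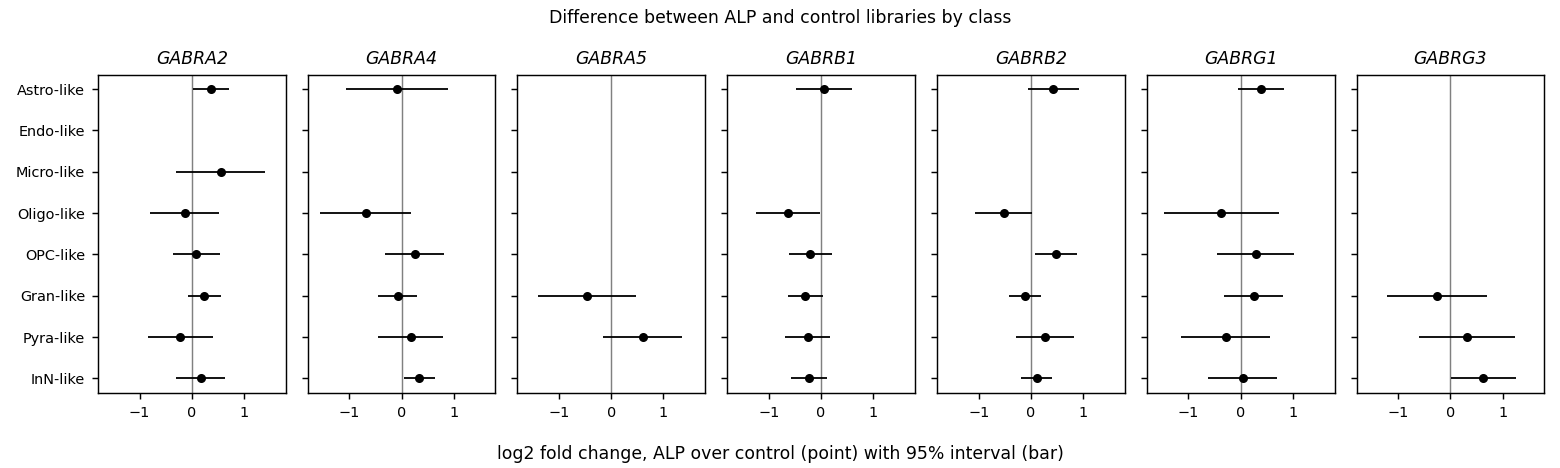
log2 fold change of ALP over control TSs (points) with its 95% interval (bars) for each subunit gene and class with enough counts, from edgeR's quasi-likelihood test on 3 against 3 libraries. No point passes 1 in size, and 36 pairs are shown, of which 0 were called.

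Of the alpha subunits, GABRA2 in Astro-like nuclei was 279, 293 and 280 CPM in the control and 323, 376 and 404 CPM in the ALP TSs. All ALP libraries were above all control libraries. On the log2 scale the difference was 0.37 (95% interval 0.033 to 0.72), with an adjusted p of 0.252 in edgeR, so it was not called. It was 0.33 to 0.48 with any 1 library left out. The GFAP-led cluster 19 was 17.7% to 25.3% of the ALP and 3.30% to 14.9% of the control Astro-like nuclei, and cluster 0 was the rest. GABRA2 had means of 313 and 319 CPM in clusters 0 and 19, and within cluster 0, in which 0.317% of genes and 0 of 4 members tested were called, its log2 fold change was 0.38 (0.032 to 0.72).

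GABRA2 in Gran-like nuclei showed the same order, with 627, 613 and 560 CPM in the control and 659, 683 and 787 CPM in the ALP TSs. The log2 fold change of 0.24 (-0.071 to 0.56) had an adjusted p of 0.413 in edgeR. In Pyra-like nuclei the control libraries, at 183, 413 and 342 CPM, spread around the ALP libraries, at 240, 281 and 279 CPM. The fold change on the log2 scale was -0.22 (-0.83 to 0.40) in the whole class and 0.22 (-0.29 to 0.72) within cluster 9, in which 0.0512% of genes were called and 0 of 6 members tested.

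GABRA4 in InN-like nuclei was 199, 207 and 171 CPM in the control and 233, 265 and 234 CPM in the ALP TSs. The groups did not overlap. Its log2 fold change was 0.34 (0.048 to 0.64), with an adjusted p of 0.190 in edgeR, the lowest of the 36 pairs. The SST type, in which GABRA4 was high, made up 28.4% to 36.8% of the control and 30.03% to 43.0% of the ALP InN-like nuclei. Within types the log2 fold change was 0.28 in the SST type, 0.25 in the LAMP5 type, -0.065 in the CNR1 type and -0.22 in the VIP type, and the groups overlapped in each.

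GABRA5 could be tested in Gran-like and Pyra-like nuclei only. In Pyra-like nuclei it was 22.6, 22.96 and 10.7 CPM in the control and 31.7, 20.4 and 34.4 CPM in the ALP TSs, and the groups overlapped. The log2 fold change of 0.60 had an interval from -0.17 to 1.36 (edgeR adjusted p = 0.407), and within cluster 9 it was 0.14. In Gran-like nuclei, on 74 UMIs, it was -0.47 (-1.41 to 0.47).

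Of the beta subunits, GABRB1 had log2 fold changes below 0 in 5 of the 6 classes tested. In Gran-like nuclei it was 303, 255 and 250 CPM in the control and 207, 217 and 236 CPM in the ALP TSs, without overlap. Its log2 fold change was -0.30 (-0.64 to 0.034), with an adjusted p of 0.330 in edgeR. It was -0.25 in Pyra-like nuclei (-0.32 within cluster 9, -0.80 to 0.15), -0.23 in InN-like and -0.21 in OPC-like nuclei, where the groups overlapped, and 0.061 in Astro-like nuclei.

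Within the SST type GABRB1 was 150, 137 and 105 CPM in the control and 69.3, 80.8 and 90.4 CPM in the ALP TSs. All ALP libraries were lower. This log2 fold change of -0.71 (-1.18 to -0.24) had an adjusted p of 0.199 in edgeR. In this type 9.70% of genes had the ALP libraries all lower, and 0% of the 6991 genes tested were called, 910 of them at an unadjusted p under 0.05. The GABRB1 values in the other types were 0.23 in the LAMP5 type, 0.16 in the VIP type and -0.22 in the CNR1 type, so 2 of 4 types had the opposite sign. The sum over SST-type nuclei rested on 319 UMIs of GABRB1.

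GABRB2 in OPC-like nuclei was 87.0, 62.9 and 80.0 CPM in the control and 99.7, 116 and 113 CPM in the ALP TSs. All ALP libraries were higher. It differed by 0.48 on the log2 scale (0.077 to 0.88), with an adjusted p of 0.232 in edgeR. OPC-like nuclei with a GABRB2 UMI after thinning were 7.56%, 6.20% and 6.62% of the control nuclei against 8.62%, 10.3% and 8.88% of the ALP nuclei. In Astro-like nuclei the log2 fold change of GABRB2 was 0.43 (-0.053 to 0.91). Within cluster 0, where its mean was 174 CPM against 264 CPM in cluster 19, it was 0.47 (0.00023 to 0.94, adjusted p = 0.316 in edgeR). In the classes where it was highest it was -0.12 (Gran-like, -0.42 to 0.19) and 0.12 (InN-like, -0.18 to 0.41).

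Of the gamma subunits, GABRG1 in Astro-like nuclei was 136, 172 and 140 CPM in the control and 249, 163 and 178 CPM in the ALP TSs. The groups overlapped, and the log2 fold change was 0.39 (-0.058 to 0.83; edgeR adjusted p = 0.360), and 0.33 within cluster 0. In the other classes its interval was wider, at the most from -1.46 to 0.73 in Oligo-like nuclei.

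GABRG3 in InN-like nuclei was 64.4, 36.8 and 35.1 CPM in the control and 62.7, 54.7 and 96.4 CPM in the ALP TSs. Control 1 lay among the ALP libraries. Its log2 fold change was 0.63 (0.0021 to 1.26), with an adjusted p of 0.252 in edgeR. It ranged from 0.40 without ALP 3 to 1.00 without control 1. Without the filter on low counts the log2 fold change was 0.70 and the adjusted p 0.0399, the 1 setting under which a member was called. That setting called 1434 of 41091 genes (3.49%) in InN-like nuclei, against 0 with the filter.

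The CNR1 type carried the largest GABRG3 difference of the 4 types, with 71.3, 56.8 and 48.5 CPM in the control and 109, 84.5 and 164 CPM in the ALP TSs. The ALP libraries were all above the control libraries. A log2 fold change of 1.00 (0.37 to 1.63) had an adjusted p of 0.163 in edgeR. In this type 7.71% of genes had the ALP libraries all above, and 0.0354% were called, among them 0 members. The GABRG3 difference was 0.89 (-0.031 to 1.81) in the VIP type, 0.56 (-0.51 to 1.62) in the SST type and 0.11 (-0.58 to 0.79) in the LAMP5 type. In the VIP and LAMP5 types 0.552% and 1.38% of genes were called, and 0 members in either.

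**Figure D5:**
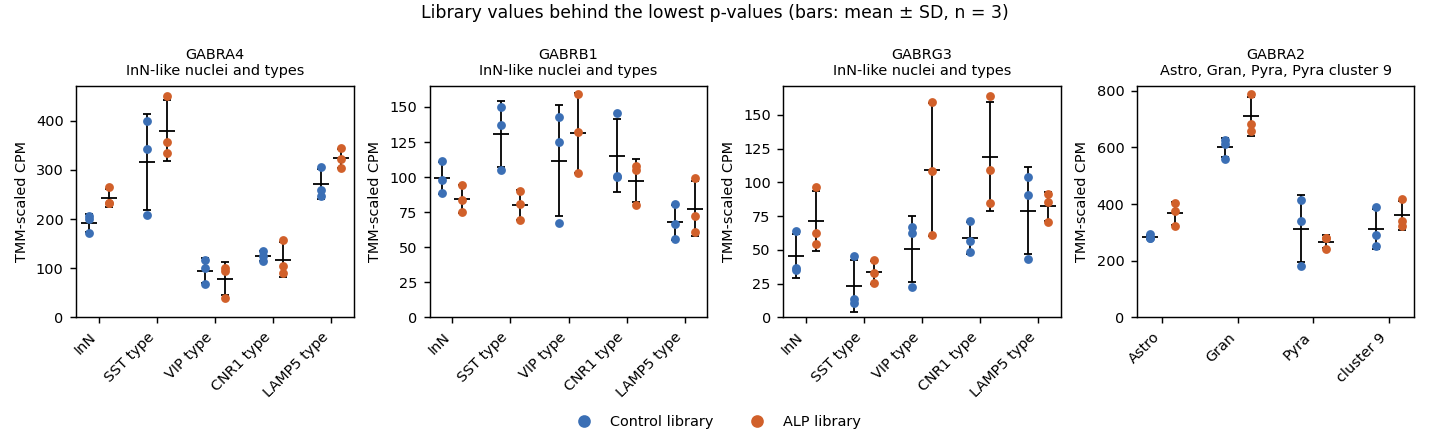
TMM-scaled CPM by library (points) with mean ± SD of 3 libraries per group (bars) for GABRA4, GABRB1 and GABRG3 in InN-like nuclei and their types and for GABRA2 in Astro-like, Gran-like and Pyra-like nuclei and Pyra-like cluster 9. ALP and control points are apart for GABRA4 in InN-like nuclei, GABRB1 in the SST type, GABRG3 in the CNR1 type and GABRA2 in Astro-like and Gran-like nuclei, with no adjusted p under 0.05 among them.

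Summed over all nuclei kept, GABRG3 was 15.5, 15.6 and 12.03 CPM in the control and 24.7, 20.6 and 25.8 CPM in the ALP TSs. All ALP libraries were higher, as for 12.8% of all genes in these sums. The difference was 0.73 on the log2 scale (0.28 to 1.17), with an adjusted p of 0.0878 in edgeR. Of 22749 genes tested 0% were called while 5323 had an unadjusted p under 0.05, and 0 members were called. In such a sum, more nuclei of a class and more RNA per nucleus cannot be told apart. InN-like and Pyra-like nuclei held 48.6% and 28.8% of the GABRG3 UMIs. The control libraries had 541, 160 and 257 Pyra-like and 408, 296 and 480 InN-like nuclei among 7022, 1614 and 5751. The ALP libraries had 640, 712 and 556 Pyra-like and 463, 489 and 293 InN-like nuclei among 3927, 5217 and 4702. The part of this class mix in the difference was not tested.

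In Oligo-like nuclei the 5 members tested all had log2 fold changes below 0, with a median of -0.52 against 0.0039 over all genes tested there. ALP libraries were all below control libraries for GABRA4 (10.4, 26.3 and 12.2 against 7.10, 8.95 and 8.24 CPM), GABRB1 (41.5, 30.1 and 24.9 against 22.0, 16.9 and 24.7 CPM) and GABRB2 (24.4, 30.1 and 28.4 against 19.9, 20.02 and 16.5 CPM), and 10.7% of all genes in this class did so. GABRB1 had a log2 fold change of -0.63 (-1.26 to -0.012) and an adjusted p of 0.222 in edgeR. These levels were at most 8.15% of each gene's highest class. Control 2, with the highest GABRA4 and GABRB2 values, had 170 Oligo-like nuclei, the fewest of any library. With 1 library left out the log2 fold change ranged from -0.90 to -0.44 for GABRA4. It ranged from -0.87 to -0.29 for GABRB1 and from -0.61 to -0.41 for GABRB2. Markers of InN were also lower in the ALP libraries, while the groups overlapped for the other neuronal lists. The 7 InN markers with counts summed to 103 to 127 CPM in control libraries of this class and to 76.8 to 94.2 CPM in ALP libraries. The 6 excitatory markers summed to 278 to 473 CPM and 279 to 321 CPM. In the same order, the 8 Gran markers summed to 378 to 428 CPM and 422 to 453 CPM, and the 8 Pyra markers to 250 to 323 CPM and 212 to 302 CPM. Their part in the result was not tested.

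The Oligo-like class was also made of its clusters in unequal parts. Cluster 3 was 34.9% to 56.1% of the ALP and 4.66% to 26.5% of the control Oligo-like nuclei, and cluster 6 was 5.43% to 10.2% of the ALP and 19.4% to 38.6% of the control nuclei. On the plain CPM scale GABRB1 had means over 6 libraries of 13.4 CPM in cluster 3, 24.4 CPM in cluster 6 and 43.4 CPM in cluster 4. Its control and ALP means were 8.38 and 18.4 CPM in cluster 3, 37.0 and 11.9 CPM in cluster 6 and 54.0 and 32.9 CPM in cluster 4, so of these 3 clusters the ALP mean was higher in cluster 3, where the groups overlapped. GABRB2 within cluster 3 was 40.4, 60.5 and 59.6 CPM in the control and 20.4, 18.4 and 21.5 CPM in the ALP TSs with TMM factors. The groups did not overlap, and the log2 fold change was -1.35 (-2.22 to -0.49), with an adjusted p of 0.107 in edgeR, on 67 UMIs. Within cluster 4 it was -0.086 (-0.96 to 0.79) for GABRB2 and -0.49 (-1.25 to 0.26) for GABRB1. In clusters 3, 4 and 6, 1.98%, 1.05% and 1.49% of genes were called and 0 members, of which 2, 3 and 0 could be tested. How far the mix of clusters entered the difference of the whole class was not tested.

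For the shares of nuclei with a UMI, 3 libraries were set against 3 in an exact permutation test (two-sided), which cannot give a p below 0.1. After thinning to 1000 UMIs, 8 of 56 pairs reached it, with adjusted p = 0.70 for each. Over the 8 classes, the groups did not overlap in 10.7% of all 289779 pairs of a feature with a UMI and a class, and in 20.5% of those with enough counts for the edgeR test, among them 6 of the 36 member pairs. GABRA2 in Gran-like nuclei was seen in 44.6%, 41.3% and 41.2% of the control nuclei against 45.2%, 48.1% and 50.5% of the ALP nuclei. GABRB1 in Gran-like nuclei was seen in 23.5%, 22.0% and 20.3% against 17.6%, 19.1% and 17.4%. The others were GABRA4, GABRB1 and GABRB2 in Oligo-like, GABRB2 and GABRG3 in OPC-like and GABRG1 in Micro-like nuclei, the last with means of 0.466% in control and 2.81% in ALP libraries. GABRG1 had 27 UMIs in the Micro-like class, too few for the edgeR test, and thinning kept 737 of its 1394 nuclei. Unthinned, its means were 0.929% and 2.32%, and the groups overlapped.

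Whether the ALP difference varied between classes was tested in 1 model over the 8 classes. Of 16727 genes 1.09% were called, and 0 of the 7 members, of which GABRG3 had the lowest p (adjusted p = 0.501 in edgeR).

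The other genes of the GABA synapse, 46 in a list of receptors, scaffolds, transporters and enzymes, gave 157 tested pairs with a class out of 368, and 1 was called. This was PLCL1, which encodes a scaffold protein of receptor trafficking and phospholipid signalling. In Micro-like nuclei it was 1457, 1625 and 1534 CPM in the control and 759, 785 and 798 CPM in the ALP TSs. It fell by 0.97 on the log2 scale (95% interval -1.40 to -0.54; adjusted p = 0.0320 in edgeR), and that call was lost when control 3 or any 1 ALP library was left out (-0.99 without control 3, -0.93, -0.98 and -0.96 without ALP 1, 2 and 3) and under other clusterings, at Leiden resolution 1 (-0.59) and with subunit features among the variable genes (-0.58). On the plain CPM scale PLCL1 averaged 3446 in Oligo-like nuclei against 986 in Micro-like nuclei, and the 5 oligodendrocyte markers with counts summed to 1764 to 2107 CPM in the control and 1526 to 1557 CPM in the ALP Micro-like nuclei, whose part in the result was not tested. By group of the list, 31 pairs of other GABA-A subunits, 16 of synthesis, release and uptake, 16 of the GABA-B receptor, 78 of scaffold and trafficking and 16 of chloride transport were tested, and only the scaffold and trafficking group held the called pair.

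Other GABA-A subunits were measured in neurons without a call. GABRD, the delta partner of alpha4, was 11.03, 7.66 and 8.52 CPM in the control and 23.3, 13.1 and 19.9 CPM in the ALP InN-like nuclei (log2 fold change 1.03, adjusted p = 0.126 in edgeR). The groups did not overlap. GABRD had means of 24.5 CPM in Gran-like and 9.29 CPM in Pyra-like nuclei, with log2 fold changes of 0.41 and -0.048, and it had too few counts within Pyra-like cluster 9.

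GABRA3 was 77.0 ± 14.2 CPM in OPC-like nuclei, its highest class mean, and had a log2 fold change of -0.96 in Pyra-like nuclei (adjusted p = 0.217 in edgeR, groups overlapping) and of -0.24 within cluster 9. GPHN, the gephyrin scaffold of inhibitory synapses, had log2 fold changes between -0.28 and 0.10 over the 8 classes.

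GAD1, an enzyme of GABA synthesis, had a log2 fold change of 0.35 in InN-like nuclei (adjusted p = 0.673 in edgeR) on 83 UMIs. GAD2 could not be tested.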

How the data were processed

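The authors deposited raw counts, that is UMIs per feature and barcode, made with Cell Ranger (3.1.0 per the labels, 6.1.2 per the matrix headers) and the TreeshrewDB annotation. Build and use of strand are not given in the sources used here. From these counts, nuclei were filtered as in the methods (200 and 2500 genes, 5% mitochondrial UMIs), scaled to 10000 UMIs, and clustered with scanpy 1.11.5 and leidenalg 0.10.2 (2000 variable genes without GABA-A subunit features, 30 components, 20 neighbours, resolution 2). A class name needed at least 3 markers. Clusters of low depth, with at least 15% marked doublets or with more leading markers of another class stayed unnamed, by thresholds set after seeing the data. Marked doublets were otherwise kept.

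UMIs were summed per library and class (at least 10 nuclei) and compared between groups in edgeR 4.0.16, run under R 4.3.3 (quasi-likelihood test, TMM, filterByExpr with a minimum count of 10, Benjamini-Hochberg adjustment, 3 against 3 libraries, groups from the titles). The test was tried on simulated data. Libraries stand for separate animals, so the p-values set the difference between groups against the variation between libraries of a group. With 1 library per animal, variation between animals and between preparations cannot be told apart. Alternatives were DESeq2 1.42.0, upper-quartile normalization, no filter, a replicate block, each library left out, no upper gene limit, doublets removed, resolution 1, subunit features among the variable genes, and thinning to 500 UMIs or none. Values within InN-like types, Pyra-like cluster 9, Astro-like cluster 0 and Oligo-like clusters 3, 4 and 6 were added after seeing the data. Shares were tested with scipy 1.17.1. The p of a class difference came from an edgeR F test.

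The members, the GABA synapse list and the rule for named genes were chosen with earlier results of these data known. That rule names all members, list genes that were called, 9 fixed list genes and the 3 genes most like each member. Genes outside it are SLC12A5 and GABRA6, named after their values were seen. Some genes that the rule names are not reported here.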

Additional observations from a re-analysis of the deposited data

Results flagged for a closer look

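For 2 members, the 3 ALP libraries were all above the 3 control libraries in 1 class and all below them in another. How many of all genes had such opposite orders was not counted, so these 2 members cannot be set against a background. In single classes the groups were apart, in either order, for 24.4% of genes in InN-like, 18.6% in OPC-like and 22.9% in Oligo-like nuclei. GABRA4 had a log2 fold change of 0.34 in InN-like nuclei and of -0.69 in Oligo-like nuclei. GABRB2 had a log2 fold change of 0.48 in OPC-like nuclei and of -0.52 in Oligo-like nuclei. The difference between these pairs of classes was not tested by itself. In the joint test of equal effects over the 8 classes neither gene was called (adjusted p = 0.821 and 0.574 in edgeR). These values depended on 1 library. Without control 1 the adjusted p was 0.0874 for GABRA4 and 0.235 for GABRB2 in edgeR, where 3.16% of all genes were called. Those were the lowest values of both genes, and neither was called in any setting tried. The Oligo-like values rest on 118 and 265 UMIs, in a class of which cluster 3 was 34.9% to 56.1% in the ALP and 4.66% to 26.5% in the control TSs and cluster 6 was 5.43% to 10.2% and 19.4% to 38.6%. Within cluster 3 the log2 fold change of GABRB2 was -1.35 and within cluster 4 it was -0.086, while GABRA4 could not be tested in either. In the same Oligo-like libraries, 7 markers of inhibitory neurons summed to 103 to 127 CPM in the control and to 76.8 to 94.2 CPM in the ALP TSs. The 8 markers of Gran, the class where both genes were highest, summed to 378 to 428 CPM and to 422 to 453 CPM. The part of the cluster mix or of RNA from neurons in these values was not tested.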

How the results depend on the processing

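No member was called under any alternative other than the missing filter on low counts, where the number of called pairs was 1 (GABRG3 in InN-like nuclei, where 1434 genes, 3.49%, were called against 0 with the filter). Of 495 member values refitted under other settings of the same 36 pairs, 472 kept direction and side of the threshold, 22 reversed and 1 became a call. Of the reversals, 17 came with a library left out, in ranges around 0: GABRA2 in Oligo-like -0.44 to 0.12, OPC-like -0.012 to 0.30 and Pyra-like -0.47 to 0.068, GABRA4 in Astro-like -0.26 to 0.15, Gran-like -0.20 to 0.11 and Pyra-like -0.044 to 0.63, GABRB1 in Astro-like -0.14 to 0.40, and GABRG1 in OPC-like -0.038 to 0.50, Pyra-like -0.67 to 0.016 and InN-like -0.14 to 0.44. Without the upper gene limit, GABRA2 (0.065) and GABRG1 (0.042) in Pyra-like, GABRA4 in Gran-like (0.16) and GABRG1 in InN-like nuclei (-0.067) reversed, and without the filter GABRA4 in Gran-like nuclei (0.0099). Within parts of a class, GABRA2 (0.22) and GABRG1 (0.051) reversed in Pyra-like cluster 9, GABRA2 (-0.12) and GABRB1 (0.23) in the LAMP5 type, GABRA4 (-0.065), GABRB2 (-0.065) and GABRG1 (-0.052) in the CNR1 type, GABRB2 (-0.054) in the SST type, and GABRA4 (-0.22) and GABRB1 (0.16) in the VIP type. Within Astro-like cluster 0 and Oligo-like clusters 3 and 4, where 4, 2 and 3 members could be tested, no tested member reversed. On the plain CPM scale the ALP mean of GABRB1 was the higher one in cluster 3, unlike in the whole Oligo-like class. None of the reversed values was called, and the cause was not tested.

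Of the list, 1 pair was called in the main test, 2 by DESeq2 and 3 without the filter, where PLCL1 was not among them (adjusted p = 0.192 in edgeR), and 0 with the replicate block, with doublets removed, at resolution 1 and with subunit features among the variable genes. Among all genes, DESeq2 called 0.0656% (Endo-like) to 4.09% (Oligo-like) per class, and the fit without the filter 0.0394% (Endo-like) to 3.49% (InN-like). The share was 0% to 4.75% with upper-quartile normalization, 0% to 4.83% with doublets removed and 0% to 4.66% at resolution 1. With subunit features among the variable genes it was 0% to 4.92%, and without the upper gene limit 0% to 4.96%. In each of these 0% were called in Endo-like nuclei, and the highest share was in Oligo-like nuclei. Pyra-like nuclei were at 0% too, other than without the upper gene limit (0.0119%). InN-like nuclei were at 0% with subunit features among the variable genes. With 1 library left out the number of list pairs called was 0 to 3, while 0% to 8.4% of all genes per class were called. Same-numbered libraries did not deviate together (r from -0.17 to 0.063), so the block pairs only numbers. With it 0 members were called, while 0.00745% (Pyra-like) to 2.09% (Oligo-like) of all genes per class were called. Shares without overlap were 9 pairs at 500 UMIs and 6 unthinned, against 10.8% and 13.3% of all pairs of feature and class. Among pairs with enough counts for the edgeR test, they were 7 and 6 of 36 member pairs, against 20.6% and 27.9% of all such pairs.

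Limits were few animals, an upper gene limit that removed deep nuclei, and depth. GABRA5 and GABRG3 rest on 585 and 1162 UMIs in all, and 20 pairs of member and class had too few counts to be tested, so differences there were not detectable at this depth.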

Other observations

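SLC12A5, the neuronal chloride extruder KCC2 that sets the direction of current through GABA-A receptors, was 74.4, 73.8 and 81.9 CPM in the control and 147, 135 and 169 CPM in the ALP Pyra-like nuclei. The log2 fold change was 0.97 (95% interval 0.58 to 1.36), with an adjusted p of 0.104 in edgeR, where no gene of the class was called. Its adjusted p ranged from 0.00162 to 0.435 over the alternatives, the lowest without the filter on low counts, where 967 of 42201 genes (2.29%) were called, and the highest without ALP 3, and without the upper gene limit the log2 fold change was 0.57. Within cluster 9 it was 0.78 (0.30 to 1.25, adjusted p = 0.186 in edgeR).

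GABRA6, the alpha6 subunit known from cerebellar granule cells, carried 3815 UMIs here. Its mean was 117 CPM in InN-like, 82.0 in Pyra-like, 64.9 in Astro-like and 64.8 in Gran-like nuclei, and 6.58 CPM in Oligo-like nuclei. In the RefSeq table of the assembly TupChi_1.0, GABRA6 and GABRB2 stand in consecutive rows, GABRB1 is 4 rows after GABRA4, and GABRG3 is 2 rows after GABRA5. The table matched all 7 members.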
